A study of Danio rerio with 6 samples.

Results

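The gene table of this zebrafish study lists 38157 genes and gene models. Of these, 1865 are unannotated models, that is, transcribed loci with a provisional identifier in place of a gene of the reference annotation, placed outside the alternate contigs of the GRCz11 build. They were chosen by the identifier prefix that marks such models in the table and by their place alone, so no expression value of the table entered the choice. Such models are in general built from reads, however, so being listed at all may depend on expression. A further 3772 such models lie on alternate contigs, where the assembly stores other versions of a region and where the table lists 0 annotated genes. Those models were not followed here. Of the 1865 models, 1590 lie on chromosomes 1 to 25, 274 on 212 unplaced scaffolds and 1 on the mitochondrial genome.

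Such models arise when aligned RNA-seq reads are assembled into transcripts and some transcripts match no annotated gene. Such a locus can be a noncoding RNA, an unannotated exon or end of a nearby gene, a copy of a transposable element, or a protein-coding gene in a poorly assembled stretch of the genome. The sources used here do not name the program that built these models, and they carry no gene name or function beyond a protein match that the authors' table assigns to some of them.

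The study asked what loss of sirt6, which encodes a NAD-dependent deacylase of histones, does to gene expression. RNA-seq libraries from sirt6 mutant larvae, of a line made with CRISPR/Cas9, were compared with libraries from wild-type (WT) larvae, with 3 libraries per genotype, all at 3 days post fertilisation (dpf). After genotyping, tails with their blood-forming tissue were used, and RNA with a poly-A tail was sequenced. The labels give neither the lesion in sirt6 nor the number of larvae per library. They do not state whether each replicate was a pool of its own, so the p-values below reflect only how far these 6 samples differ, which may be technical variation.

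Reads in genes numbered 12438359 to 14655293 per library. The level of sirt6 itself was 3.32 ± 0.251 FPKM in mutants and 3.85 ± 1.78 FPKM in WT (SD, n = 3 each), where FPKM counts fragments relative to gene length and sequencing depth. The tissue label was checked against marker lists. In every library, 6 of the 6 posterior hox genes, 4 of 4 skin genes and 4 of 5 tail muscle genes were above 0. The muscle gene mylpfa was nearly absent, with means of 0.0618 FPKM in mutants and 0.0467 FPKM in WT. For blood, 3 of 4 erythroid, 2 of 3 neutrophil and 3 of 3 macrophage genes were above 0 in every library. Only 1 of the 3 macrophage genes averaged 1 FPKM or more. For the notochord, 2 of 3 genes were above 0 in every library. Markers of the head and trunk were present as well. The summed level of 5 eye markers was 1074 to 1272 FPKM in mutants and 575 to 877 FPKM in WT. All listed forebrain, lens, liver and intestine genes were above 0 in every library. So were 3 of 4 pancreas genes and 3 of 4 heart genes, with only 3 heart genes found in the gene table. Over the reads of the unannotated models, the closest libraries were mutant 1 with mutant 3, whose chi-square divided by its degrees of freedom was 2.11, and WT 2 with WT 3, at 2.35. The other 13 pairs of libraries lay between 6.68 and 16.5, so the libraries did not group by genotype alone.

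The unannotated models were short, and most spanned more of the genome than their length. Their median length, summed over exons, was 1316 bases, with quartiles of 596 and 2905 bases and a range of 201 to 17737 bases. Protein-coding genes had a median of 2163 bases and annotated long noncoding RNA genes one of 809 bases. In 1506 of the 1865 models, or 80.8%, the span on the genome exceeded the length. This was counted as having an intron, or spliced, however small the excess: the model near plpp2a had a length of 3368 bases and a span of 3388. The same held for 95.7% of protein-coding genes. The 359 models without an intron were the longer ones, with a median length of 2175 bases against 1110 bases for those with an intron.

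Most of the unannotated models were expressed at a low level, and few were silent. The median level, as the mean over the 6 libraries, was 1.82 FPKM, with quartiles of 0.891 and 3.91 FPKM. It was 2.44 FPKM for protein-coding genes and 0.0308 FPKM for annotated long noncoding RNA genes. The order held above 0.5 FPKM, the minimum mean used for testing: the medians were 2.18 FPKM for 1608 unannotated models, 4.86 FPKM for 18142 protein-coding genes and 1.62 FPKM for 588 long noncoding RNA genes. This minimum was passed by 86.2% of the unannotated models, against 71.3% of protein-coding genes and 18.0% of long noncoding RNA genes. A level of at least 10 FPKM was reached by 118 unannotated models, or 6.33%, against 20.4% of protein-coding genes, and 53 unannotated models had no read in any library. These figures describe 3 classes that may have entered the table in different ways. The annotated genes came from the annotation and the unannotated models perhaps from reads, which the sources used here do not state. As 53 unannotated models had no read here, a read counted in these libraries was not needed for listing. No test was made between the 3 classes.

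**Figure D1:**
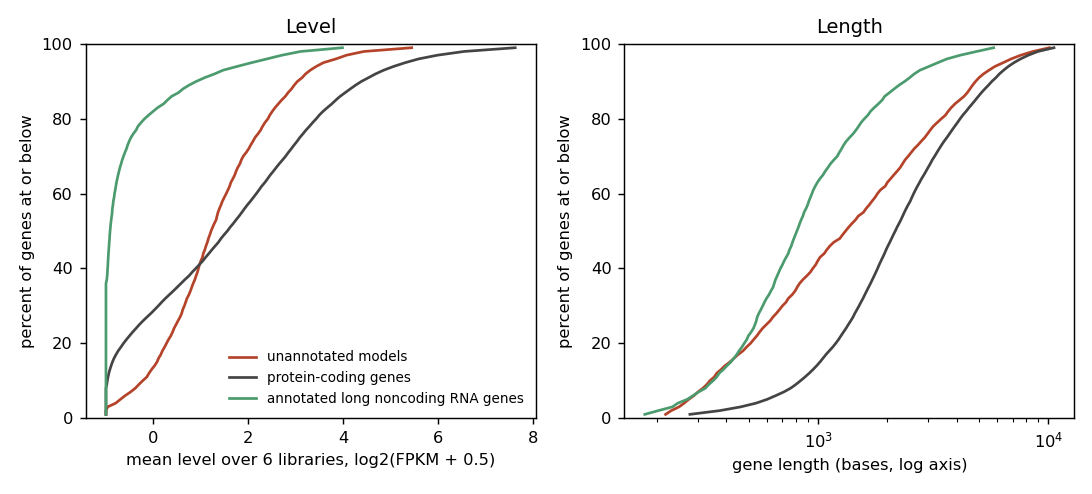
Cumulative percent of 1865 unannotated models, 25432 protein-coding genes and 3274 annotated long noncoding RNA genes by mean level over the 6 libraries (left, log2(FPKM + 0.5)) and by length in bases (right, log axis), from the 1st to the 99th percentile. The unannotated models start at higher levels than both annotated classes, pass below protein-coding genes near the middle of the range, and their median length of 1316 bases lies between those of the other classes, 2163 and 809 bases.

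The distance of the models from a named gene varied widely. For 1630 models a named gene, meaning one whose symbol is not a clone name, was on the same chromosome or scaffold. A model described singly below is called near its nearest named gene at whatever distance that gene lay. An annotated gene with a clone name can lie closer. The median gap to the nearest one was 6.49 kb, with quartiles of 2.0 and 28.5 kb and a maximum of 714 kb. A gap of at most 1 kb was found for 275 models and one of over 100 kb for 133. An overlap with the nearest named gene on the same strand was found for 2 models, and none overlapped it on the opposite strand. As such models come from transcripts that match no annotated gene, the lack of overlap may follow from how they are made. Within 5 kb, 224 models (12.01%) lay downstream of the gene on its strand, 128 (6.86%) lay upstream on its strand and 391 (21.0%) lay on the opposite strand on either side. Another 885 (47.5%) were farther away, and 235 (12.6%) were on a scaffold with no named gene. Chromosome 4 carried the most models, 110, followed by chromosome 2 with 98, and chromosome 14 carried the fewest, 35.

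**Figure D2:**
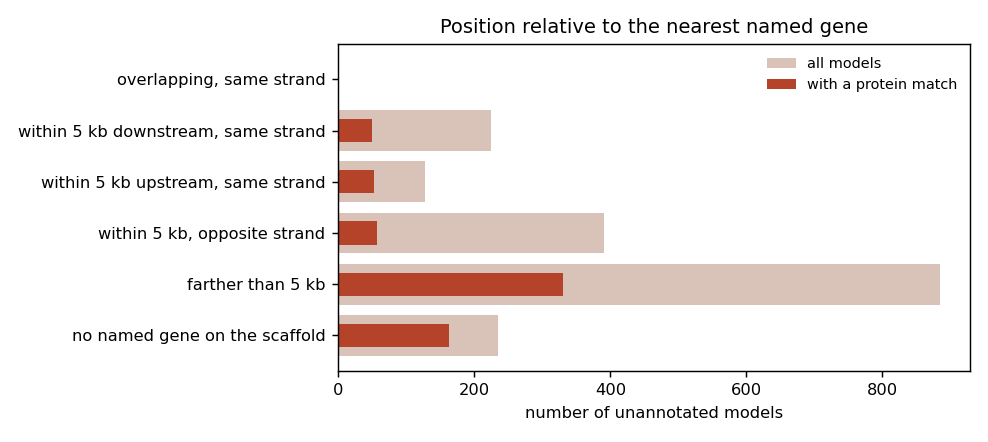
Number of unannotated models by position relative to the nearest named gene (pale bars, all 1865 models) and the number among them with a protein match in the authors' table (dark bars). Models on the opposite strand within 5 kb number 391, and 57 of them have a protein match, whereas 163 of the 235 models on scaffolds with no named gene have one. The opposite-strand class takes in both sides of the gene, whereas same-strand models are split into 224 downstream and 128 upstream, so these bars cannot be ranked directly.

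The models on the opposite strand within 5 kb were the longest and the most highly expressed class by median. They had a median length of 2333 bases and a median level of 2.70 FPKM, and 273 of the 391 had an intron. Models downstream on the same strand had medians of 1898 bases and 2.32 FPKM, and models upstream on the same strand had medians of 986 bases and 2.20 FPKM. Models farther than 5 kb had medians of 1047 bases and 1.51 FPKM. Across the pairs in which both members reached the minimum for testing, the log2 level of a model followed that of its neighbour weakly. Pearson's r was 0.37 for 340 pairs on opposite strands, 0.16 for 200 downstream pairs, 0.13 for 101 upstream pairs and 0.13 for 619 farther pairs. These are descriptions over loci that share the same 6 libraries. The strand setting of the read counting is not stated in any source used here, so reads of overlapping genes on opposite strands cannot be told apart. How the strand of each model was assigned is not stated either, so the classes by strand rest on the deposited values.

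A protein match is given for 654 models, or 35.1%, and a Pfam protein domain for 287. Models with a match had a median length of 996 bases and a median span of 5510 bases, and 93.7% of them had an intron. Models without a match had a median length of 1566 bases and a median span of 3016 bases, and 73.7% had an intron. A match was given for 67.5% of the models on unplaced scaffolds, against 29.5% on chromosomes, and for 11.4% of the models without an intron, against 40.7% of those with one.

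Most of the matched proteins were also those of annotated genes, more often without than with such a gene within 100 kb on the same chromosome or scaffold. For 172 of the 654 models (26.3%), an annotated gene within 100 kb carried the same protein name, and for 66 this was the nearest named gene itself. Of those 66 models, 59 lay on the strand of that gene, with a median gap of 3.8 kb. In the 53 pairs whose members both reached the minimum for testing, the model was the lower one in 38, with medians of 3.11 FPKM for the models and 7.19 FPKM for the genes, and the log2 levels had a Pearson r of 0.63. For 346 models the same protein name was carried only by annotated genes farther away or on another chromosome or scaffold. Another 136 models (20.8%) matched a protein whose name no annotated gene of the table carried. Names were compared exactly, so a related protein under another name counted as absent. Of the 654 matched models, 185 lay on unplaced scaffolds, whose distance from genes elsewhere is unknown. Reads can be split between a model and a near-identical annotated gene, so the levels of such pairs are uncertain.

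Some neighbouring models shared a protein. There were 57 runs of models that matched the same protein with gaps of at most 50 kb between neighbours. They held 125 of the 654 matched models, and 40 of the runs lay on 1 strand. A protein counted only where all its models on a chromosome or scaffold kept to that gap, and groups with transposable-element proteins were left out. For 12 runs no annotated gene of the table carried the same protein name. The longest run, picked out after its values were seen like the others in this paragraph, held 4 models that match integrin alpha-7, a laminin receptor of muscle, at chromosome 11, 73604 to 87085, on the minus strand. Within this run the level was far from even: the model at 73604 to 75083 had 24.7 ± 2.64 FPKM in mutants and 26.5 ± 2.58 FPKM in WT, and the next, at 75187 to 76357, had 1.83 ± 0.418 FPKM in mutants and 2.06 ± 1.53 FPKM in WT (SD, n = 3 each). A run of 3 models next to dync1h1, which encodes the heavy chain of cytoplasmic dynein, matched that same chain at chromosome 17, 871208 to 916771. Its members averaged 17.1 to 57.3 FPKM, and the middle one, at 901282 to 906231, had 29.2, 11.3 and 26.8 FPKM in mutants and 19.7, 14.3 and 11.96 FPKM in WT. The annotated dync1h1 was likewise lowest in mutant 2, with 18.1, 3.83 and 20.2 FPKM in mutants and 14.4, 7.29 and 8.36 FPKM in WT. Mutant 2 was thus the lowest library for both, and the genotypes overlapped.

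Proteins of transposable elements were matched by 38 models, of which 34 passed the minimum. Their median level was 2.45 FPKM and their median length 3996 bases, and 21 had an intron. Of these, 11 matched the Tc1-like transposases Tcb1 or Tcb2, and 9 matched a Pol polyprotein, the replication protein of a retroelement, with a median of 7.58 FPKM and 2 of 9 with an intron. The highest of the Pol models, on chromosome 9, 37015759 to 37020425, had 24.8, 26.5 and 25.6 FPKM in mutants and 26.9, 33.2 and 32.5 FPKM in WT. All 3 mutant values lay below the WT values. It had a log2 fold change of -0.26, with -0.56 to 0.05 as the 95% interval (limma, adjusted p = 0.895). The other 8, looked at because of this one, had log2 fold changes between -0.38 and -0.03, and none passed.

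The 10 models of highest level were led by loci without any protein match. The first lay on chromosome 1, 56561090 to 56576650, on the minus strand, 126 kb from the nearest named gene, slc25a10. That gene encodes a mitochondrial dicarboxylate carrier. An annotated protein-coding gene with a clone name lay closer, at 4.76 kb. The model is spliced, 3774 bases long, and held 15183 to 23796 reads per library. Its level was 302, 334 and 315 FPKM in mutants and 305, 456 and 466 FPKM in WT. WT 1 lay within the mutant range, and WT 2 and WT 3 lay above all other libraries. The neighbour slc25a10 had 33.4 ± 4.66 FPKM in mutants and 36.1 ± 1.07 FPKM in WT (SD, n = 3 each).

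The same pair of WT libraries stood high for the model near loxl3b, the one with the most reads in a library, 14744 to 29256. It is a stretch of 8681 bases without an intron on chromosome 13, 15423885 to 15432565, 19.3 kb from that gene, which encodes a lysyl oxidase that cross-links collagen. The model had 159, 194 and 175 FPKM in mutants and 121, 244 and 246 FPKM in WT. WT 1 was thus the lowest library and WT 2 and WT 3 the highest, and the log2 fold change of -0.15 turned to 0.02 without WT 2 and to 0.03 without WT 3. For loxl3b the values were 10.9, 11.1 and 9.89 FPKM in mutants and 10.02, 8.26 and 7.30 FPKM in WT, so WT 2 and WT 3 were its lowest libraries.

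The second highest model lay on the mitochondrial genome from base 1 to 917 on the minus strand, 0.034 kb from a mitochondrial tRNA gene. It had 140, 208 and 130 FPKM in mutants and 234, 305 and 349 FPKM in WT, with 1710 to 4091 reads per library. All mutant values were below all WT values. The mutant level was lower by a log2 fold change of -0.90, with -1.43 to -0.37 as the 95% interval, which did not pass (limma, adjusted p = 0.70). Gaps were taken along linear coordinates, so genes at the far end of this circular genome, across base 1, were not counted as near. In these coordinates its nearest named gene was mt-nd1, which encodes a subunit of respiratory complex I and lies on the other strand. This gene had 2530 ± 286 FPKM in mutants and 2947 ± 155 FPKM in WT (SD, n = 3 each), a log2 fold change of -0.22.

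Of the short and spliced models with a protein match among the 10 highest, 2 had another pattern, with WT 1 apart from the rest. A model of 394 bases on an unplaced scaffold, from 13340 to 15322, matched the ribosomal protein L6 of the large subunit. It had 72.7, 68.7 and 56.2 FPKM in mutants and 281, 81.2 and 74.1 FPKM in WT. A model of 317 bases on chromosome 18, 26108036 to 26115595, lay 6.24 kb from idh2 on its strand and matched its protein, a mitochondrial isocitrate dehydrogenase. It had 80.4, 91.9 and 70.1 FPKM in mutants and 251, 69.4 and 64.4 FPKM in WT. Each had its highest value in WT 1 by a wide margin, and the log2 fold change of the model near idh2, -0.37, turned to 0.26 without that library. The annotated idh2 did not share this: it had 646, 868 and 640 FPKM in mutants and 758, 669 and 647 FPKM in WT.

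A collagen model on an unplaced scaffold, from 439 to 36683, with a match to the alpha-1 chain of the cartilage collagen IX, had 165, 141 and 155 FPKM in mutants and 156, 111 and 102 FPKM in WT. The genotypes overlapped through WT 1, with a log2 fold change of 0.34 (95% interval -0.09 to 0.77). A model of 239 bases near psma1, with a match to ribosomal protein L27a, was the least even of the 10 within the mutants, with 78.6, 37.2 and 19.8 FPKM in mutants and 47.8, 86.3 and 93.9 FPKM in WT. The remaining 3 of the 10 had no match. The model near igsf11 averaged 56.1 ± 15.1 FPKM in mutants and 81.4 ± 24.2 FPKM in WT, the model near igfbp1b averaged 48.7 ± 11.3 FPKM in mutants and 80.7 ± 37.8 FPKM in WT, and the model near slc25a38a averaged 64.0 ± 15.7 FPKM in mutants and 58.0 ± 7.15 FPKM in WT (SD, n = 3 each). None of the 10 passed the test between genotypes.

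The unannotated models together took a small share of the reads, and this share varied most among the WT libraries. It was 1.81%, 1.78% and 1.93% of the reads in genes in mutants and 1.52%, 2.40% and 2.44% in WT. The means were 1.84 ± 0.0784% in mutants and 2.12 ± 0.522% in WT (SD, n = 3 each), a difference of -0.281 percentage points (exact two-sided permutation test, p = 0.4, adjusted p = 0.48 over 6 shares tested, where 0.1 is the smallest p possible). Bulk libraries cannot tell fewer cells that express these loci from less RNA per cell. The mutant libraries all lay inside the WT range, between WT 1 below and WT 2 and WT 3 above.

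The spread differed between kinds of model. Those without a protein match took 1.22%, 1.28% and 1.32% of reads in mutants and 0.987%, 1.79% and 1.83% in WT. Models with a match took 0.587%, 0.496% and 0.607% in mutants and 0.532%, 0.610% and 0.609% in WT. Their range over the libraries was 1.23-fold, against 1.85-fold for the models without a match and 1.96-fold for the models without an intron. Annotated long noncoding RNA genes took 0.566%, 0.565% and 0.574% in mutants and 0.602%, 0.614% and 0.634% in WT. For this class all mutant values were below all WT values, at the smallest p that the permutation test allows, 0.1, with an adjusted p of 0.48.

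**Figure D3:**
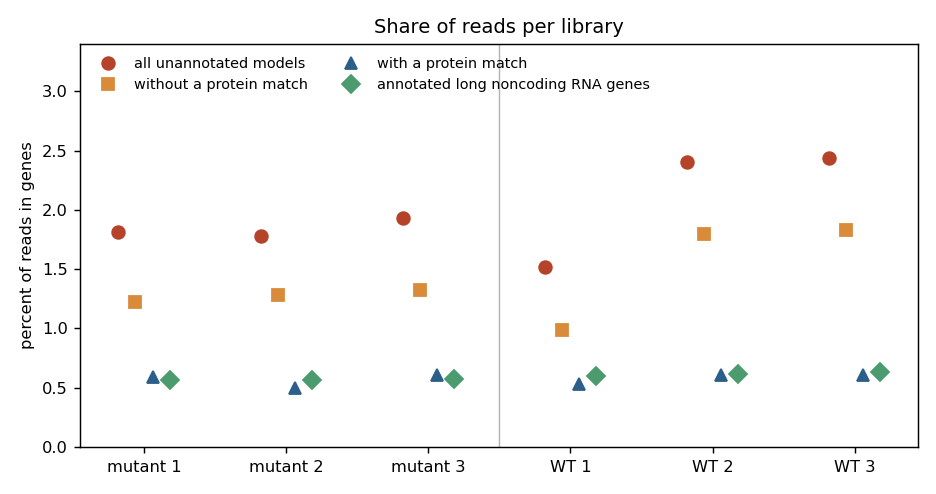
Percent of the reads in genes taken by all unannotated models, by those without and with a protein match, and by annotated long noncoding RNA genes, with 1 point per library and mutants on the left. For all unannotated models the mutants lie at 1.78% to 1.93%, WT 1 at 1.52% and WT 2 and WT 3 at 2.40% and 2.44%.

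The order of the libraries was also read model by model. Each tested model's log2 level was set against its mean over the 6 libraries, and the median deviation was taken over models. For models with neither an intron nor a match it was -0.19, 0.01 and -0.13 in mutants and -0.41, 0.34 and 0.37 in WT. For models with an intron but no match it was -0.14, 0.00 and -0.08 in mutants and -0.22, 0.25 and 0.26 in WT. For the 37 models without an intron but with a match it was -0.10, -0.09 and -0.08 in mutants and -0.11, 0.20 and 0.24 in WT. Models with both an intron and a match had another order, 0.08, -0.14 and 0.07 in mutants and 0.07, -0.01 and 0.01 in WT, with mutant 2 lowest. Protein-coding genes stayed within 0.02 of 0 in every library. They make up 18142 of the 23855 genes and models tested, so they are no independent contrast. For annotated long noncoding RNA genes the median deviation was -0.05, -0.03 and -0.01 in mutants and -0.04, 0.07 and 0.10 in WT. WT 2 and WT 3 were the highest 2 libraries for 586 of the 1608 tested models (36.4%). The same held for 21.4% of annotated long noncoding RNA genes and 17.6% of all genes and models tested. Among the classes by position, this share was 58.8% for models within 5 kb on the opposite strand and 21.4% for models on scaffolds with no named gene. Annotated genes needed no reads to enter the table, whereas the unannotated models may have needed them. The effect of this on the order of the libraries was not tested.

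**Figure D4:**
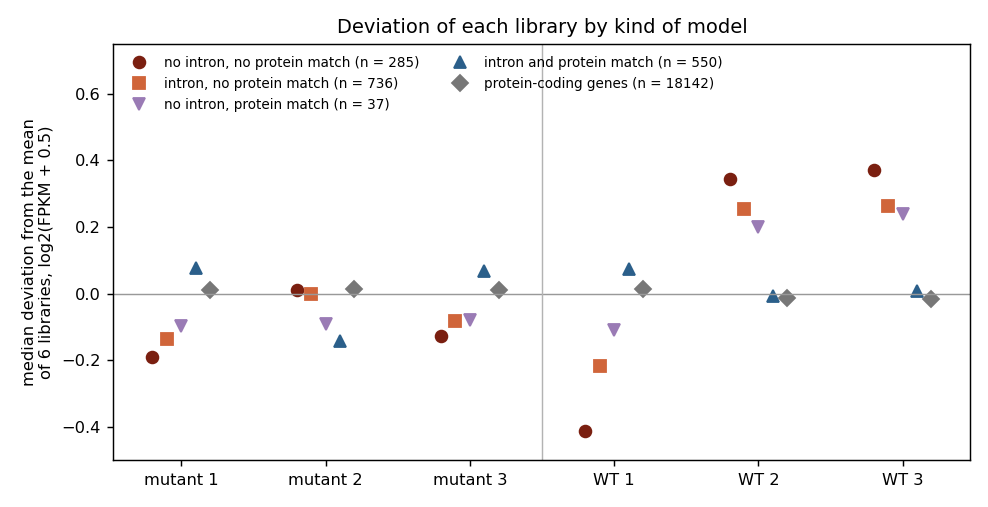
Median deviation of each library from the mean of the 6 libraries, on the log2(FPKM + 0.5) scale, for tested unannotated models by the presence of an intron and of a protein match and for protein-coding genes, with mutants on the left. Models with neither an intron nor a match fall to -0.41 in WT 1 and reach 0.37 in WT 3, those with an intron and no match go to -0.22 and 0.26, while protein-coding genes lie near 0 in all 6 libraries.

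Between genotypes, no unannotated model passed the test in either direction. Of the 1608 tested models, 0 were higher and 0 lower in mutants at an adjusted p under 0.05 (limma, with the Benjamini-Hochberg adjustment over all 23855 genes and models tested), and the background over all tested was 0% in each direction. The smallest adjusted p of a unannotated model was 0.191. By limma voom on the recovered reads the counts were also 0 and 0. At an unadjusted p under 0.05, 23 models (1.43%) were higher and 89 (5.53%) lower in mutants, against a background of 2.45% higher and 3.28% lower. By voom these counts were 15 and 53, or 0.933% and 3.30%, against 2.64% and 2.32% of all tested.

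The values of the 2 genotypes did not overlap for 32 models (1.99%) that were higher in mutants and for 97 (6.03%) that were lower, against 5.16% and 5.40% of all tested. The median log2 fold change, mutant minus WT, was -0.13 over the tested unannotated models and 0.00 over all tested, and 1088 of the 1608 (67.7%) were below 0. As the unannotated models may have entered the table through reads and annotated genes did not, the 2 sets may not be alike in selection. For the 322 models without an intron, 0 (0%) were higher and 21 (6.52%) lower at an unadjusted p under 0.05, against 2.45% and 3.28% of all tested. Their median log2 fold change was -0.20. For the 587 models with a protein match the counts were 13 (2.21%) and 26 (4.43%), closer to those shares of all tested, with a median of -0.04. These counts rested on which libraries were used. Without WT 1, 64 models (3.98%) were higher and 393 (24.4%) lower at an unadjusted p under 0.05, against 8.88% and 9.65% of all tested, and the median was -0.26, with none passing after adjustment. Without mutant 2, 68 (4.23%) were higher and 119 (7.40%) lower, against 7.48% and 5.96% of all tested. Without both WT 1 and mutant 2, an alternative chosen after seeing the data that leaves only the closest pair of libraries of each genotype, 74 models (4.60%) were higher and 313 (19.5%) lower at an adjusted p under 0.05, against 9.15% and 9.42% of all tested. At an unadjusted p under 0.05 that alternative gave 160 (9.95%) and 536 (33.3%), against 18.2% and 17.4%. In that fit the genotype and whatever else each pair of libraries shares cannot be told apart. The pairs left are the closest by these same values, so the spread within genotypes is understated. The p-values of that fit therefore cannot be taken at face value.

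The 8 models of smallest p that were higher in mutants included 6 with a protein match. The smallest p of all belonged to a spliced locus of 1251 bases without a match on chromosome 12, 46092991 to 46097071. It lay 217 kb from pax2b, which encodes a developmental transcription factor. An annotated gene with a clone name, zgc:153932, lay closer, at 1.71 kb. The model had 1.68, 2.41 and 2.05 FPKM in mutants and 0.286, 0.405 and 0.313 FPKM in WT. The lowest mutant value was above the highest WT value, at 5 to 41 reads per library. Its log2 fold change of 1.60, with 1.11 to 2.10 as the 95% interval, did not pass (limma, adjusted p = 0.191).

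A model on chromosome 6, 356098 to 356964, lay 10.01 kb from pde6ha and matched the gamma subunit of the cone phosphodiesterase, the inhibitory subunit of an enzyme of phototransduction. It had 26.6, 33.7 and 31.6 FPKM in mutants and 18.4, 8.31 and 9.69 FPKM in WT, with no overlap. Its log2 fold change was 1.38, from 0.74 to 2.01 at 95% confidence (limma, adjusted p = 0.474). The annotated pde6ha overlapped between genotypes, with 34.7, 49.0 and 29.8 FPKM in mutants and 51.1, 23.7 and 20.5 FPKM in WT. Rod markers were higher in mutants as well: rho, the rod opsin, had 859, 910 and 778 FPKM in mutants and 568, 320 and 285 FPKM in WT, gnat1, the rod transducin, had 32.3, 42.5 and 29.8 FPKM in mutants and 21.4, 24.9 and 25.5 FPKM in WT, and saga, an arrestin, had 14.6, 15.4 and 14.4 FPKM in mutants and 5.98, 5.97 and 6.33 FPKM in WT. Both cone opsins on the list overlapped between genotypes: opn1mw1 had 248 ± 24.998 FPKM in mutants and 246 ± 5.53 FPKM in WT, and opn1sw2 had 23.6 ± 3.46 FPKM in mutants and 24.3 ± 6.40 FPKM in WT (SD, n = 3 each). The 5 eye markers were thus not all higher in mutants, and their part in the value of the model near pde6ha was not tested. None of the 5 passed, as 0 of the 23855 genes and models tested did in either direction (limma, adjusted p under 0.05). Among all tested, 5.16% were higher in mutants without overlap. A model on an unplaced scaffold, from 73 to 849, matched the rod gamma subunit and was picked after its values were seen. It had the other direction and did not pass (limma, adjusted p = 0.838). Its values were 35.4, 49.1 and 31.6 FPKM in mutants and 59.3, 51.0 and 50.9 FPKM in WT.

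On chromosome 2, an unannotated model with a mitofusin match and the annotated gene MFN1 both had higher values in mutants. Whether the 2 are parts of 1 gene was not tested. The model, at 5321905 to 5329226, matched mitofusin-1, a fusion protein of the outer mitochondrial membrane, and lay 9.53 kb from MFN1. It had 1.26, 1.92 and 1.70 FPKM in mutants and 0.374, 0.379 and 0.818 FPKM in WT, from 5 to 25 reads per library. The annotated MFN1 had 1.88, 1.67 and 2.21 FPKM in mutants and 0.434, 0.440 and 0.416 FPKM in WT, from 7 to 43 reads per library. The genotypes did not overlap in either. The log2 fold changes were 1.07 (95% interval 0.48 to 1.66) for the model and 1.37 (95% interval 0.91 to 1.84) for MFN1, and neither passed (limma, adjusted p = 0.67 and 0.221).

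The other 5 models of this direction were smaller in change. A model on chromosome 12, 31591656 to 31599518, of 7713 bases, matched the Gag-Pol polyprotein of a Ty3-type retrotransposon. It had 1.62, 1.73 and 1.77 FPKM in mutants and 0.713, 0.788 and 0.629 FPKM in WT, and its nearest named gene, cpn1, had no read in any library. The dynein model at chromosome 17, 871208 to 878231, first of the run near dync1h1 and 3.20 kb from wdr20a, was the most abundant, with 67.6, 70.7 and 63.4 FPKM in mutants and 57.1, 42.8 and 42.4 FPKM in WT. Its 2 sister models overlapped between genotypes. The model nearest to pak7, with a match to a phospholipase C, had a log2 fold change of 0.59. The one nearest to ptdss1a, without a match, had 0.63, and the one near exosc3, with a match to a transcription elongation regulator, had 0.80. The gaps to pak7 and ptdss1a were 65.8 and 78.1 kb. None of these 5 passed, with limma adjusted p from 0.566 to 0.775.

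**Figure D5:**
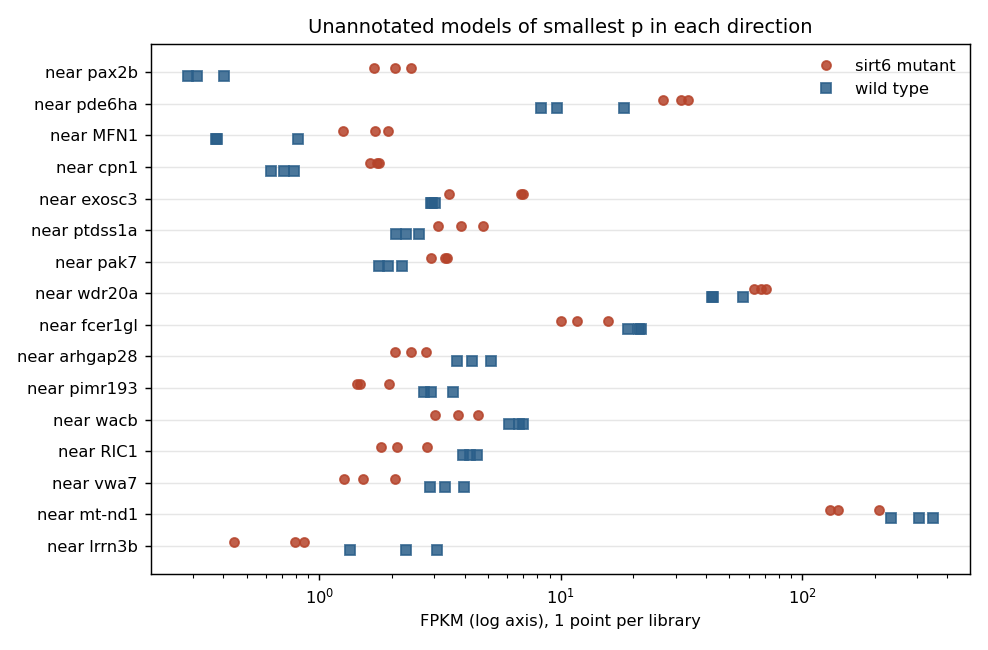
Level in FPKM (log axis) of the 8 unannotated models of smallest p in each direction that averaged 1 FPKM or more and whose genotypes did not overlap, labelled by the nearest named gene and ordered by log2 fold change, with 1 point per library and mutant points drawn above WT points. They were chosen for not overlapping, so the separation itself is a result of the choice. Their changes run from 1.60 for the model labelled by pax2b to -1.15 for the one labelled by lrrn3b, and none passed after adjustment. A label names the nearest named gene at any distance, up to 217 kb for pax2b.

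Of the 8 models of smallest p that were lower in mutants, the one on the mitochondrial genome was by far the most abundant and is given above. Next in level was an intronless locus of 981 bases on chromosome 2, 58087715 to 58088695, 2.27 kb from fcer1gl, which encodes a signalling chain of immune receptors, on the opposite strand. The model had 11.7, 15.7 and 10.1 FPKM in mutants and 19.1, 21.1 and 21.6 FPKM in WT. For fcer1gl the values were 7.21, 7.81 and 5.77 FPKM in mutants and 11.6, 7.92 and 11.03 FPKM in WT. Both loci were lower in every mutant library than in any WT library. For fcer1gl, at 57 to 108 reads per library, mutant 2 and WT 2 were nearly equal. The log2 fold changes were -0.72 for the model (95% interval -1.13 to -0.31) and -0.51 for fcer1gl (95% interval -0.95 to -0.08). Neither locus passed (limma, adjusted p = 0.683 and 0.838).

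The model near wacb matched a WW domain adapter protein and lay 3.9 kb upstream of that gene, whose protein it shares, on chromosome 2, 4375255 to 4379162. It had 3.74, 3.02 and 4.53 FPKM in mutants and 6.96, 6.74 and 6.10 FPKM in WT, a log2 fold change of -0.75 (95% interval -1.15 to -0.35). The annotated wacb had 5.48 ± 0.952 FPKM in mutants and 4.88 ± 0.979 FPKM in WT (SD, n = 3 each). Its genotypes overlapped, with a log2 fold change of 0.16 (95% interval -0.29 to 0.60). The estimates for a model and an annotated gene with the same protein name thus differed in sign. The interval of wacb took in both signs, however, and neither passed the test.

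The largest difference among these 8 was in the model on chromosome 4, 7132307 to 7133991, 76.8 kb from lrrn3b, which encodes a neuronal leucine-rich repeat protein. It had 0.444, 0.794 and 0.863 FPKM in mutants and 1.34, 2.28 and 3.08 FPKM in WT, at 6 to 40 reads per library. The difference of -1.15 in log2 fold change, with -1.83 to -0.48 as the 95% interval, did not pass (limma, adjusted p = 0.70). The remaining 4 were spliced loci of low level. Their log2 fold changes were -0.89 for the model near vwa7, -0.80 for the one near RIC1, -0.75 for the one near pimr193 and -0.74 for the one near arhgap28. Of these neighbours, pimr193 was close to silent, with 0 to 2 reads per library, and the other 3 had overlapping genotypes.

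The 4 longest models that averaged 1 FPKM or more had mean levels between 2.34 and 5.38 FPKM in either genotype. The longest spans 17737 bases without an intron on chromosome 25, 4210193 to 4227929, 3.31 kb from syt7a on the opposite strand. It had 4.13, 2.71 and 4.46 FPKM in mutants and 2.24, 4.79 and 4.86 FPKM in WT, with a log2 fold change of -0.03 whose sign changed when mutant 2, WT 2 or WT 3 was left out. Another, 13440 bases without an intron, lay 0.049 kb from ptn, a growth factor gene, on the opposite strand, and had 4.12, 4.23 and 4.45 FPKM in mutants and 3.13, 6.24 and 6.77 FPKM in WT. Both had WT 2 and WT 3 as the highest libraries. A spliced model of 14484 bases near abhd14b matched a subunit of voltage-dependent calcium channels and averaged 3.79 ± 0.871 FPKM in mutants and 4.72 ± 0.786 FPKM in WT, and one of 14615 bases near mast1b averaged 2.34 ± 0.225 FPKM in mutants and 2.5 ± 0.365 FPKM in WT (SD, n = 3 each). The 2 shortest, with 206 bases near ptpro and 223 bases near tnfrsf11b, rested on 0 to 10 and 0 to 6 reads per library, which is too few to rank the libraries.

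Near the mutated gene itself, the closest unannotated model on chromosome 2 was 288 kb from sirt6, at 52776159 to 52777474. It had 2.11, 4.80 and 2.87 FPKM in mutants and 2.28, 4.89 and 5.59 FPKM in WT. The next, at 52398091 to 52404120, lay 661 kb from sirt6 and 2.44 kb downstream of chico, with 10.8, 11.2 and 11.998 FPKM in mutants and 7.28, 17.5 and 18.3 FPKM in WT. The genotypes overlapped in both, and in the model near chico the WT libraries lay on both sides of the mutants. The third, at 52311769 to 52315156, 750 kb from sirt6 and 4.97 kb downstream of plpp2a, had 1.99, 2.94 and 1.44 FPKM in mutants and 3.01, 5.05 and 4.58 FPKM in WT. Its values did not overlap, with a log2 fold change of -0.86 (95% interval -1.47 to -0.24) that did not pass (limma, adjusted p = 0.775). The neighbour plpp2a, a lipid phosphatase gene, had 5.44 ± 3.10 FPKM in mutants and 4.32 ± 0.583 FPKM in WT (SD, n = 3 each), a log2 fold change of 0.12.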

How the data were processed

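The data are RNA-seq libraries of 3 sirt6 mutant and 3 WT samples at 3 dpf. Libraries were made from poly-A selected RNA with a Novogene kit, per the labels' protocols. The submitters' processing notes name the GRCz11 build and the tools FastQC, HISAT2 2.0.5, featureCounts and DESeq2. The authors deposited FPKM values in a table that also gives gene length, position and a protein description. The sources used here do not state how the unannotated models were built, how reads were assigned to strands or how the protein match was made, and no genome sequence was used. Reads per gene were recovered by multiplying FPKM by length: 100% of the values above 0 gave whole reads within 1e-06. The number of value columns left unused was 0. Models are referred to by position or by nearest named gene at whatever distance, and their provisional identifiers are not printed.

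Genotypes were compared with limma 3.58.1 (R 4.3.3), two-sided, on log2(FPKM + 0.5) and with a trend of variance on level. It covered the 23855 genes and models that averaged 0.5 FPKM or more, with Benjamini-Hochberg adjustment over all of them and a threshold of 0.05. Log2 fold changes are mutant minus WT on this scale, so that changes at low levels are understated. The fit was tested on simulated data. Gaps were taken between gene bodies on the same chromosome in linear coordinates, and up to 5 kb counted as near in the classes by position. The models described singly were the 10 of highest mean FPKM, the 8 of smallest p in each direction (mean of 1 FPKM or more, genotypes not overlapping), the 4 longest and 2 shortest of that mean, and the 3 nearest to sirt6, each with its nearest named gene. The models and lists were chosen with earlier results of these data known. Alternatives changed the pseudocount, filter, scaling, variance model, test, contigs, replicate block, distance that counts as near and libraries used.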

Additional observations from a re-analysis of the deposited data

How the results depend on the processing

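The counts of unannotated models passing after adjustment stayed at 0 in both directions under other pseudocounts, filters, scalings, variance models, contigs and voom, with the replicate block, and without any 1 library. They were 74 higher and 313 lower without both mutant 2 and WT 1, an alternative added after the data had been seen. Its p-values cannot be taken at face value, as the libraries left are the closest pairs. At an unadjusted p under 0.05 the higher count was 2 with a minimum of 5 FPKM (0.568%, against 2.34% of all tested) and 15 by voom (0.933%, against 2.64%). It was 160 without both libraries (9.95%, against 18.2%). Without 1 library it ranged from 18, as without WT 3 (1.12%, against 1.32%), to 68 without mutant 2 (4.23%, against 7.48%). The lower count was 18 (5.11%, against 3.13%), 53 (3.30%, against 2.32%), 536 (33.3%, against 17.4%) and 58 to 393 in the same settings, from 58 without mutant 3 (3.61%, against 1.83%) to 393 without WT 1 (24.4%, against 9.65%). Models without overlap numbered 24 with a minimum of 5 FPKM, 1074 without both libraries and 198 to 751 without 1 library, where fewer libraries make overlap rarer by construction. Without both libraries 18.0% were higher and 48.8% lower, against 33.1% and 31.1% of all tested, and without WT 1 the shares were 7.59% and 39.1%, against 18.5% and 20.3%. Without WT 3, the setting of the 198, they were 3.61% and 8.71%, against 7.21% and 7.88%. With 5 FPKM they were 1.14% and 5.68%, against 5.01% and 5.19%. Without 1 library the median log2 fold change ranged from -0.26 to -0.07, and the difference in read share from -0.582 to -0.122 percentage points. With 1 kb as near, 60 models were downstream, 32 upstream, 181 on the opposite strand and 1355 farther. The median level was 1.82 FPKM and the median length 1316 bases over all models, against 2.18 FPKM and 1461 bases over those tested, and the length was 2080 bases with alternate contigs included.

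Over the 34 models described singly by the stated rule and tested, 560 of 593 alternative values kept their direction and side of the threshold. Another 22 passed only without both libraries. The models of smallest p were chosen for genotypes that do not overlap, so leaving out libraries could not turn their sign. That part of the agreement in direction followed from the choice. The log2 fold change turned sign for the models near idh2 (0.17 without both libraries, -0.72 to 0.26 without 1 library), slc25a38a (-0.18, and -0.071 to 0.22), syt7a (0.0046 by voom, and -0.35 to 0.17 without 1 library), loxl3b (-0.48 to 0.025) and chico (-0.64 to 0.00047), and the cause was not tested. Same-numbered libraries deviated together with correlations of 0.053, 0.012 and 0.11, so the numbers were not taken as a pairing. With a replicate block, 28 models (1.74%) were higher and 118 (7.34%) lower at an unadjusted p under 0.05, against 2.47% and 3.45% of all tested, and the read share difference of -0.281 had an exact sign-flip p of 0.5. Depth limits models of few reads: the shortest rested on 0 to 10 reads per library.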
